A study of Homo sapiens with 4 samples.

Results

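The comparison described here sets MCF10A cells given exosomes of MDA-MB-231 cells (the exosome array) against MCF10A cells with no treatment (the untreated array). These are 2 of the 4 arrays of the series, chosen by their labels, and each group held 1 array. MCF10A cells come from non-tumorigenic breast epithelium, and the MDA-MB-231 line was derived from a breast cancer. Exosomes had been collected from the cancer cells and put into the culture medium of the recipient cells, and all cells were grown with serum depleted of exosomes. Time and dose were not stated in the labels. The other arrays of the series, MDA-MB-231 cells without treatment and MCF10A cells given exosomes with a Dicer antibody inside, are used only to show where a probe of this comparison lies on RNA that took no part in it. The comparison addresses how cancer exosomes alter the RNA content of non-tumorigenic cells.

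Exosomes are small vesicles of endosomal origin that cells release and that carry proteins, messenger RNA and microRNA to other cells. MicroRNAs are cut from longer precursors by the nucleases Drosha and Dicer, and their seed bases pair with target messenger RNAs to lower their translation or stability. The bead array used here reads labelled copies of total RNA with short probes, usually against messenger RNA, and a probe for a microRNA gene reads its precursor or host transcript and not the mature microRNA.

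The arrays differed first in how much they detected. A probe was called detected at a deposited detection p-value below 0.01, which by its definition about 1% of negative control probes pass. The exosome array detected 2526 of 47322 probes (5.34%) and the untreated array 19150 (40.5%). Median signals over all probes were 52.7 intensity units on the exosome array and 58.7 on the untreated array, so the difference lay in the bright part of the distribution. The brightest probe read 19477 units on the exosome array and 20732 on the untreated array. In all, 2042 probes were detected on both arrays, 484 on the exosome array only and 17108 on the untreated array only. Each group being a single array, no replicate spread could be measured and no test was made, and fewer cells of a type and less RNA per cell cannot be told apart in such bulk samples. Values below describe 2 single arrays and not the conditions in general. The labels' extraction notes deal with exosomal and cellular RNA alike, while the titles of all 4 arrays name cells. The MDA-MB-231 array detected 5.44% of all probes and the Dicer antibody array 40.7%. Whether the exosome and MDA-MB-231 arrays held cellular RNA or another RNA fraction was not tested, so their signals are given as those of the labelled arrays.

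**Figure D1:**
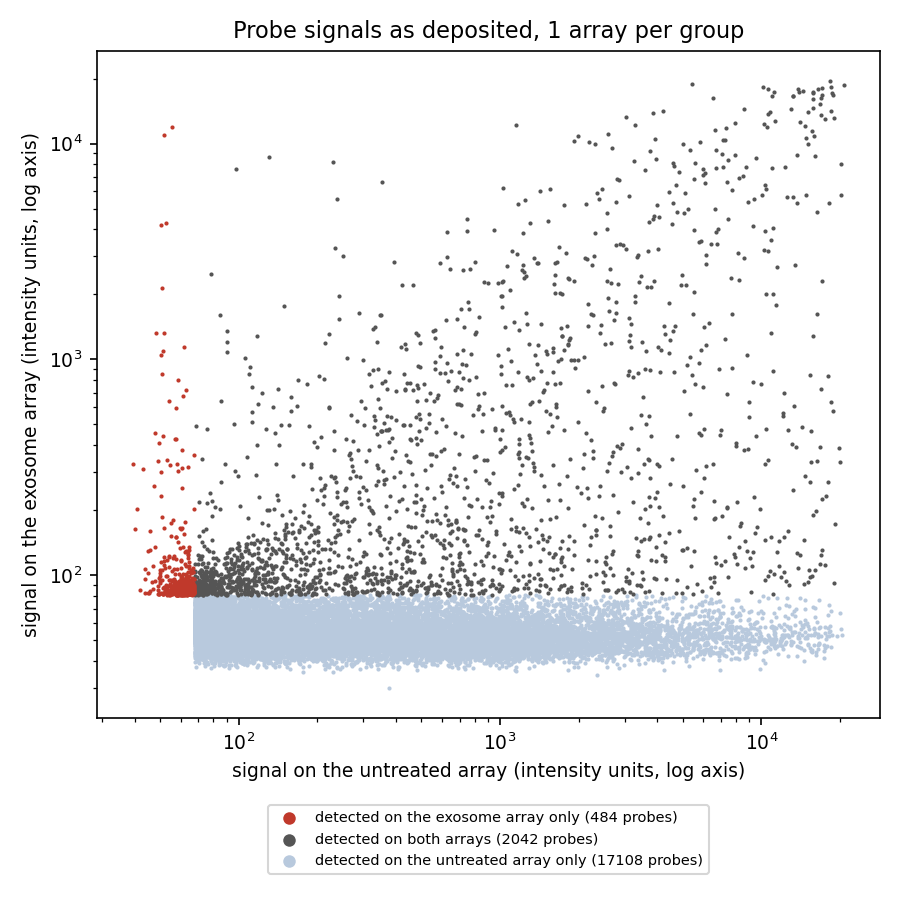
Signal of each probe detected on at least 1 array, as deposited, on the untreated array (horizontal) and on the exosome array (vertical), both in intensity units on log axes. The 17108 probes in the lower band were detected on the untreated array only and reach 20298 units there, while none exceeds 81.0 units on the exosome array.

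Cell type markers were set beside the share of all 30110 probes with 1 gene name that each array detected, 5.61% on the exosome array and 50.6% on the untreated array. At so low a share the exosome array shows neither that its markers fit the epithelial label nor that they do not. CDH1, which encodes the adhesion protein E-cadherin of epithelia, read 46.7 units on the exosome array and 52.5 on the untreated array, and was not detected on either. The basal keratins KRT5 and KRT14 were likewise not detected on either array, while KRT19, a keratin of simple epithelia, read 49.6 against 123.8 units and one probe of the epithelial adhesion gene EPCAM 52.0 against 77.3 units, both detected on the untreated array. Of 56 probes of epithelial junction and keratin genes, 0 were detected on the exosome array and 11 on the untreated array. Of 19 fibroblast probes, 0 were detected on the exosome array and 19 on the untreated array, with median signals of 53.4 units on the exosome array and 3086 on the untreated array. Mesenchymal probes were detected in 3 of 50 cases on the exosome array and in 46 of 50 on the untreated array. Leukocyte probes were detected in 1 of 20 cases on the exosome array and 5 of 20 on the untreated array, and endothelial probes in 0 of 7 and 3 of 7 in the same order. The Dicer antibody array, also labelled MCF10A, detected 8 of the 19 fibroblast probes, with a median signal of 60.2 units. It detected 21 of the 56 epithelial probes and 41 of the 50 mesenchymal ones, beside 50.4% of all named probes. On the untreated array the fibroblast markers were thus detected more often, and the epithelial markers less often, than all named probes, and counts near 0 on the exosome array lie close to the share detected there. The part that this difference in cell markers plays in the values below was not tested.

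The probes lost on the exosome array were spread over the whole range of brightness. The 19150 probes detected on the untreated array were cut into 10 deciles by their signal there. In the dimmest decile 8.65% were detected on the exosome array, and in the deciles above it up to the eighth the share lay between 7.64% and 10.2%. It reached 12.8% in the ninth decile and 24.1% in the brightest, where signals on the untreated array ran from 2357 to 20732 units. The array of MDA-MB-231 cells followed the same course, with 9.12% in the dimmest and 22.8% in the brightest decile. On the Dicer antibody array the shares were 53.6% and 97.5%. A probe among the brightest on the untreated array was thus more often absent from the exosome array than present on it.

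**Figure D2:**
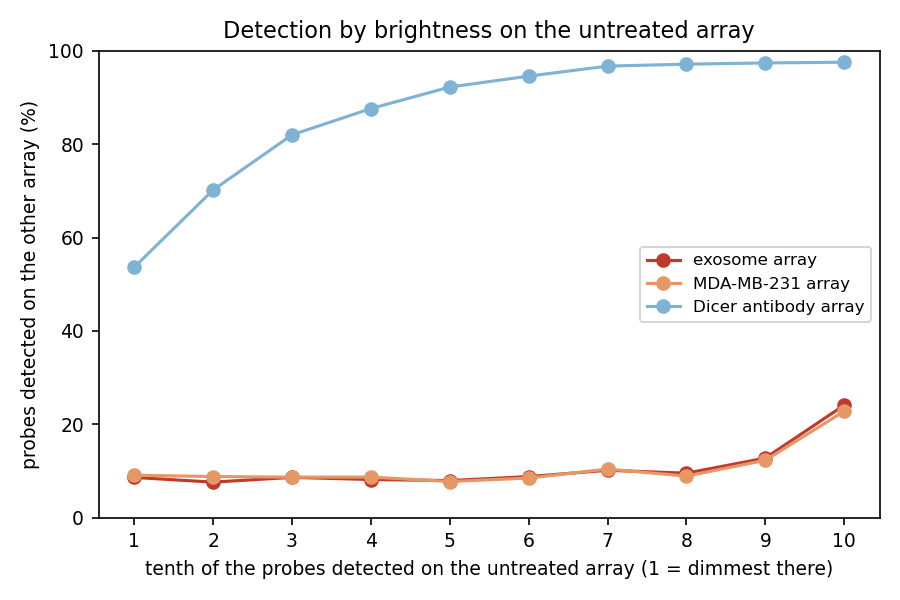
Share of probes detected on the exosome, MDA-MB-231 and Dicer antibody arrays, in percent, within each decile of the probes detected on the untreated array, from the dimmest (1) to the brightest (10). The exosome and MDA-MB-231 lines run together from near 9% to 24.1% and 22.8%, far below the Dicer antibody line.

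The brightest signals of the untreated array that fell to background on the exosome array came from genes of unlike function. For beta-actin (ACTB), the main cytoskeletal actin, one probe read 53 units on the exosome array and 20298 on the untreated array. Its smallest fold over 6 ways of scaling the arrays was at least 22.0-fold lower. For such probes the fold is a bound, taken against the lowest detected value on the exosome array or the probe's own value there, whichever is higher. Metallothionein 2A (MT2A), a metal-binding protein, read 56.2 units on the exosome array and 20153 on the untreated array, at least 21.7-fold lower. The ribosomal protein gene RPL41 (52.2 against 19472 units) was at least 21-fold lower and the protease inhibitor gene SERPINE2 (53 against 18665 units) at least 20.1-fold lower. LDHA, a dehydrogenase at the end of glycolysis, read 46.7 units on the exosome array and 18488 on the untreated array, at least 19.6-fold lower. The calcium-binding protein gene S100A4 read 58.0 units on the exosome array and 18223 on the untreated array, at least 18.5-fold lower. In background-corrected, quantile-normalized values the arrays differed at least 2-fold in 2180 of 19634 probes upward (11.1%) and 985 downward (5.02%), but median scaling gave 405 (3.2% of its calls) upward and 12260 downward, so only calls made under all 6 scalings are used. Of the 17108 probes detected on the untreated array only, 709 were at least 2-fold lower under all 6 scalings. Over all probes detected on either array that call was made for 796 probes (4.05%), and the opposite call, at least 2-fold higher under all 6 scalings, for 214 (1.09%).

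Among the 2042 probes detected on both arrays, the arrays were compared by rank, since a rank within an array does not change with its scaling. A percentile rank of 100 marks the brightest of these probes on that array. Across probes, Spearman's rho between the exosome and untreated arrays was 0.56, as a description, since probes are not replicates. The median probe differed by 17.6 percentile points. For the same probes rho was 0.84 between the exosome and MDA-MB-231 arrays, 0.60 between the exosome and Dicer antibody arrays, and 0.90 between the untreated and Dicer antibody arrays. Of the 204 brightest probes on the exosome array, 88 (43.1%) were also among the 204 brightest on the untreated array.

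The brightest shared probes belonged to ribosomal and other highly expressed genes. RPS27, a protein of the small ribosomal subunit, read 19477 units on the exosome array and 18235 on the untreated array with one probe, and 16019 against 15772 units with another. RPS12, also of the small subunit, read 18349 units on the exosome array and 18391 on the untreated array. RPS29 read 15269 against 16828 units. Galectin-1 (LGALS1), a sugar-binding protein, read 16782 units on the exosome array and 18794 on the untreated array. The alpha-tubulin gene TUBA1A read 17375 against 15794 units. Both probes of RPL13AP5, a pseudogene of RPL13A that shares most of its sequence with the parent gene, read 16806 and 16247 units on the exosome array, against 17001 and 16837 on the untreated array. The probe of RPL13A itself was not detected on the exosome array, at 59.5 units against 5729 on the untreated array. The ferritin light chain (FTL), an iron-storage protein, was among the 10 with the highest mean rank although it read 8059 units on the exosome array and 20079 on the untreated array. For the 10 probes of highest mean rank the signals of the arrays lay close together, apart from FTL and one probe of the translation factor EEF1A1, at 13116 against 18921 units.

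In 42 probes the rank rose by at least 50 percentile points on the exosome array (2.06% of 2042), and in 113 it fell by as much (5.53%). All 42 risers read at least 2 times their untreated signal and all 113 fallers at most 1/2 of it, as deposited. The risers had a median signal of 774.5 units on the exosome array and 108.7 on the untreated array. The fallers had 88.2 units on the exosome array and 3117 on the untreated array, so they lay just above the lowest detected signal of the exosome array, 81.0 units.

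The largest rises came from genes of diverse function. CARNMT1, a methyltransferase that acts on carnosine, read 1605 units on the exosome array and 85.0 on the untreated array, at percentile ranks 87.1 and 11.7. HSD17B8, a dehydrogenase of mitochondria, read 491.5 against 68.5 units, ranks 73.9 and 1.03. The deubiquitinase OTUB1 read 1203 against 90.2 units, ranks 84.6 and 13.6. Each of these stood high on the exosome array and near the lowest detected signal of the untreated array. RAC3, a small GTPase that acts on the actin cytoskeleton, read 1084 units on the exosome array and 90.4 on the untreated array, a rise of 69.8 points. SALL2, a zinc finger transcription factor, read 1019 against 105.7 units, a rise of 64.5 points. EZH2, the methyltransferase of Polycomb repressive complex 2 that places a repressive mark on histone H3, read 1278 units on the exosome array and 117.3 on the untreated array, a rise of 63.2 points. CEP85L, a centrosomal protein, rose by 61.0 points, at 857.9 against 109.9 units. PABPC3, an intronless relative of the poly(A)-binding protein gene PABPC1, rose by 60.5 points, at 1763 against 148.9 units. Whether its probe also reads PABPC1 was not tested. The 2 probes of PABPC1 itself read 1055 and 98.2 units on the exosome array, against 1511 and 7478 units on the untreated array. The guide RNAs SNORA32 and SNORA24, which direct pseudouridine formation in ribosomal RNA, rose by 63.9 and 59.1 points, at 346.7 and 503.9 units on the exosome array against 72.5 and 95.6 on the untreated array.

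The 10 largest falls held 2 ribosomal protein genes and others of unlike function. RPS24 read 82.2 units on the exosome array and 11096 on the untreated array, ranks 3.38 and 94.9. RPL24, of the large ribosomal subunit, read 83.5 against 9135 units and fell by 86.5 points. TMEM147, a membrane protein of the endoplasmic reticulum, read 81.5 against 5474 units and fell by 86.4 points. Each of these was close to the limit of detection on the exosome array. HSPB1, a small heat shock protein, read 82.9 units on the exosome array and 6798 on the untreated array. The detoxifying enzyme GSTP1 read 82.6 against 4967 units. Nicastrin (NCSTN), a subunit of the gamma-secretase protease, read 83.4 against 3588 units, and the mismatch repair gene MSH3 read 91.1 against 14546 units. TMEM47, CUTA and IFI27L2 completed the 10 largest falls, by 80.3, 79.8 and 79.2 points.

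Neither array of this comparison stood alone in these ranks. Of the 42 risers, 41 had a rank on the MDA-MB-231 array closer to their rank on the exosome array than to that on the untreated array, and all 42 were seen above background there. Of the 113 fallers, the MDA-MB-231 rank was closer to the exosome rank for 105, and that array detected 59 of them (52.2%). Against the Dicer antibody array the counts were 9 of 42 risers and 8 of 113 fallers. Over all 2042 probes the MDA-MB-231 rank was closer to the exosome rank for 1522 and the Dicer antibody rank for 505. EZH2 lay between, with a percentile rank of 60.8 on the Dicer antibody array and 77.9 on the MDA-MB-231 array. At the edge of the 50-point rule, SNORA65 rose by 50.1 points and SREBF1 by 49.95, while DXO fell by 50.2 points and TNPO1 by 49.7.

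**Figure D3:**
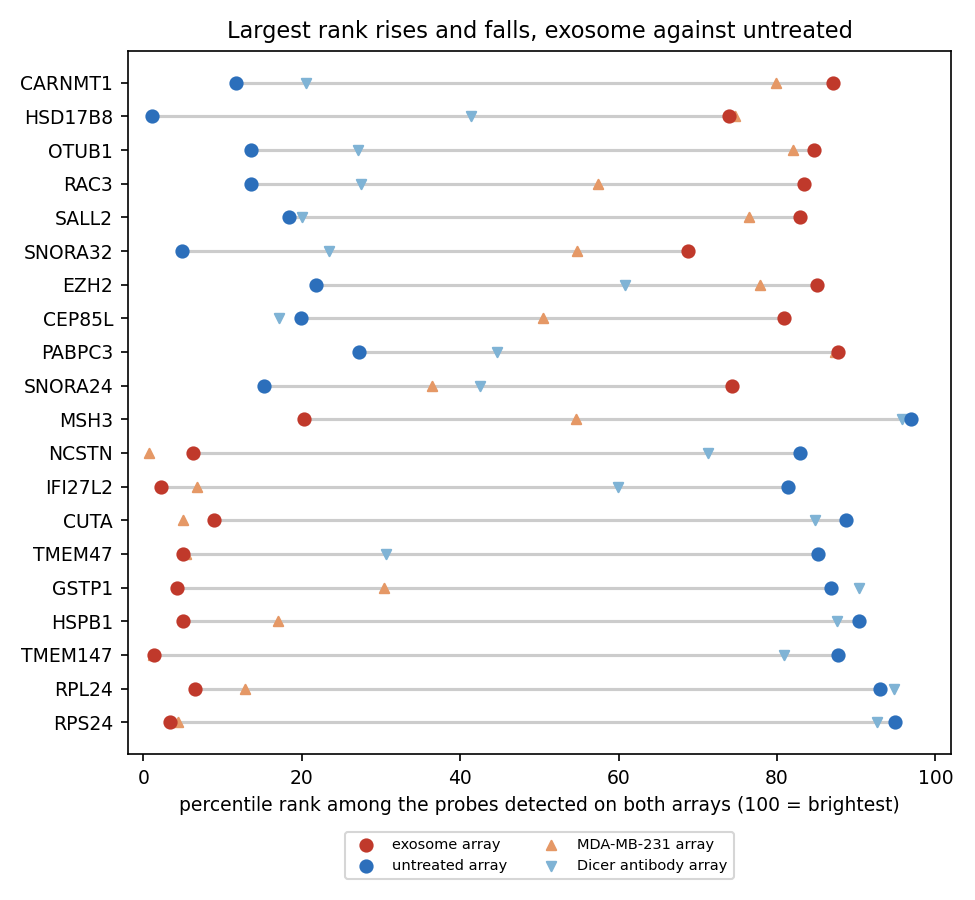
Percentile rank, from 0 (dimmest) to 100 (brightest) among the 2042 probes detected on both arrays, of the 10 probes with the largest rise and the 10 with the largest fall. Circles joined by a line are the exosome and untreated arrays, and triangles are the MDA-MB-231 and Dicer antibody arrays. The MDA-MB-231 triangle of CARNMT1 lies at 79.9, beside its exosome rank, and that of the Dicer antibody array at 20.6.

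The 484 probes detected on the exosome array only were mostly just above the limit. Their median signal was 86.6 units on the exosome array and 60.0 on the untreated array, and 379 of them read under 100 units on the exosome array. They made up 1.72% of the 28172 probes not detected on the untreated array, beside the 1% of negative controls that pass by definition. Of the same 28172 probes the MDA-MB-231 array detected 1.91% and the Dicer antibody array 9.3%. Just inside the limit, GPRC5B, OR52N2 and SERPING1 read 81.0 units on the exosome array, and just outside it SULT6B1 read 80.9. On the untreated array 207 of the 484 had a detection p below 0.05.

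A smaller group of 84 probes had a detection p of 0 on the exosome array, with signals from 109.6 to 11975 units there and from 39.3 to 67.5 on the untreated array. The MDA-MB-231 array detected 65 of these 84 (77.4%) and 177 of the other 400 (44.2%). On the Dicer antibody array 48 (57.1%) of the 84 and 169 (42.2%) of the 400 were detected. In comparison, of the 27688 probes detected on neither array of this comparison, the MDA-MB-231 array detected 1.07% and the Dicer antibody array 8.68%. At least 2-fold higher under all 6 scalings were 54 of the 484 (11.2%), and 33 of them at least 4-fold.

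Of the named genes in this group, CYCSP52 had the highest bound. CYCSP52 is a pseudogene of the cytochrome c gene CYCS, and its probe read 10935 units on the exosome array and 51.9 on the untreated array, at least 161-fold higher. The probe of CYCS itself read 69.4 units on the exosome array and 170.4 on the untreated array. PDGFA, a chain of platelet-derived growth factor that drives division of mesenchymal cells, read 4279 units on the exosome array and 52.7 on the untreated array, at least 63.1-fold higher. On the MDA-MB-231 and Dicer antibody arrays it read 1312 and 554.7 units. SIGLEC12, a member of the Siglec family of cell surface proteins, read 4202 against 50.5 units, at least 62.0-fold higher. PGK2, a phosphoglycerate kinase of male germ cells copied from PGK1, read 1330 against 48.2 units, at least 19.6-fold higher. The 2 probes of PGK1 read 54.2 and 43.9 units on the exosome array, against 3950 and 847.2 on the untreated array. In each of these cases the untreated array gave no signal above its controls.

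Among the rest, STX16, a SNARE protein of traffic to the Golgi, read 1145 units on the exosome array and 61.6 on the untreated array, at least 16.9-fold higher. ICA1, an autoantigen of pancreatic islets, read 1046 against 50.3 units, at least 15.4-fold higher. CD24, a glycoprotein of the cell surface, read 676.4 against 61.0 units, at least 9.98-fold higher, and 341.9 units on the Dicer antibody array. VPS53, a subunit of a complex that tethers vesicles, read 359.1 against 67.3 units, where 67.8 units was the lowest detected signal on the untreated array. OR1K1, an odorant receptor, read 341.3 against 53 units.

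The transcription factor BCL11A, a repressor of fetal globin genes, read 456.4 units on the exosome array and 48.0 on the untreated array, at least 6.73-fold higher. SPI1, a transcription factor of myeloid cells, read 426.9 against 56.9 units, at least 6.30-fold higher. In the leukocyte list the surface antigen PTPRC was not detected by any of its 4 probes on either array, the myeloid marker CD14 was detected on both by one probe (84.0 against 297.9 units), and the macrophage marker CD68 was detected by all 3 probes on the untreated array only. BCL2, an inhibitor of apoptosis, read 381.6 against 60.5 units, and the splicing factor MBNL2 410.1 against 49.7 units. The transcription factor TFAP2A read 312.9 against 60.4 units, and 324.7 units on the Dicer antibody array. RND1, a regulator of the actin cytoskeleton, read 329.1 against 39.3 units. BEND5 was represented by 2 of the 20 probes, at 598.2 and 339.9 units on the exosome array against 57.6 and 48.9 on the untreated array. HDGFL1, HGH1 and the pseudogene IFITM4P filled the list, at least 10.6-fold, 9.44-fold and 4.65-fold higher.

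**Figure D4:**
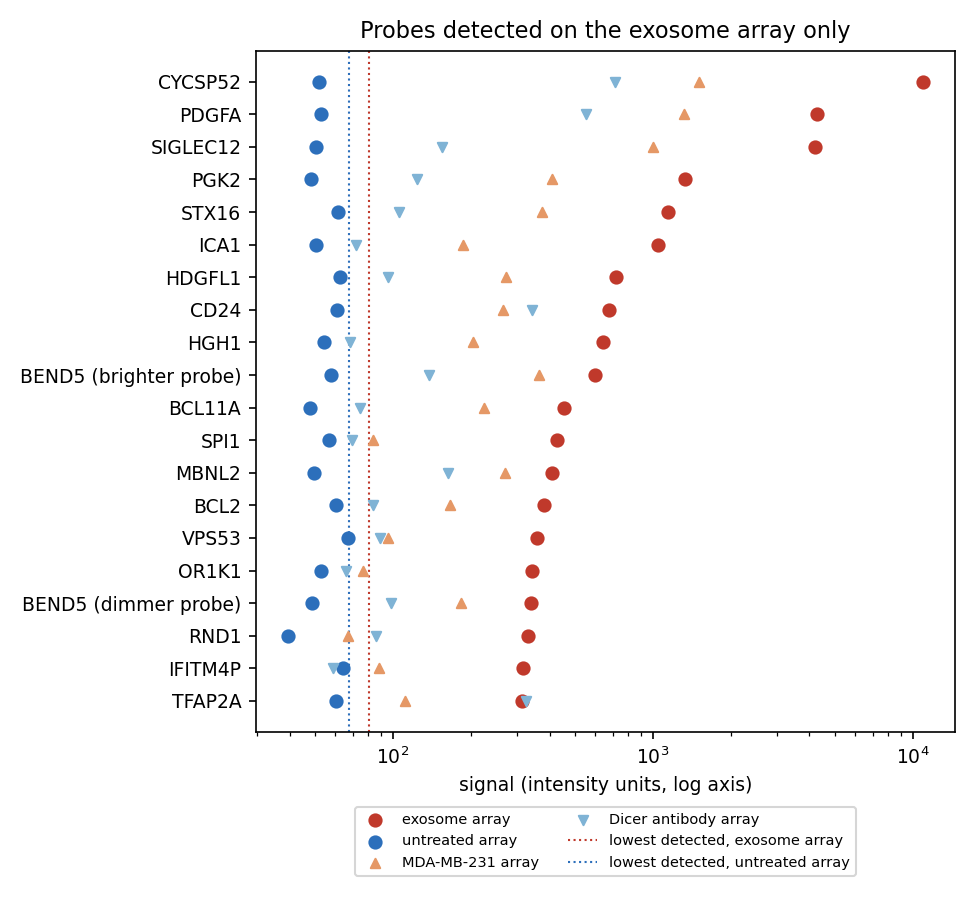
Signal, in intensity units on a log axis, on all 4 arrays for the 20 named probes with the highest bound among those detected on the exosome array only. The exosome signals run from 312.9 units for TFAP2A to 10935 for CYCSP52, and every untreated signal lies left of the blue dotted line at 67.8 units, the lowest detected signal on that array.

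Different probes of one gene often disagreed, and this bears on every gene named above. Of 3067 genes with at least 2 probes detected on the untreated array, 564 had at least 1 of those probes detected on the exosome array, and in 54 of the 564 (9.57%) all were. The same share was 9.88% on the MDA-MB-231 array (57 of 577 genes) and 87.9% on the Dicer antibody array (2545 of 2894). In the 510 genes whose probes were split on the exosome array, 445 of the 547 detected probes (81.4%) had a detected signal from MDA-MB-231 cells, against 24 of the 683 undetected ones (3.51%). For 406 of these genes the MDA-MB-231 array was split as well, and in 390 it detected exactly the same probes.

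Single genes show this pattern. For EEF1A1 the 4 probes read 13116, 335.9, 67.0 and 52.4 units on the exosome array, against 18921, 19990, 20003 and 1468 units on the untreated array in the same order. TUBA1A read 17375 and 57.8 units on the exosome array, against 15794 and 7357 units on the untreated array. Another probe of RPS27 read 58.5 units on the exosome array and 3455 on the untreated array. A signal close to that of the untreated array thus held for the probe named and not for each probe of the gene. One more ACTB probe was detected on the exosome array, at 111.7 units against 17538 on the untreated array.

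The same held for genes higher on the exosome array. PDGFA had another 2 probes, at 69.9 and 66.7 units on the exosome array against 49.5 and 54.4 on the untreated array, not detected on either. EZH2 had another 2, at 61.2 and 48.2 units on the exosome array against 94.2 and 57.6 on the untreated array. The second STX16 probe ran the opposite way, at 56.7 units on the exosome array against 1458 on the untreated array. A further probe of each of OTUB1, MBNL2, VPS53, BCL2, BCL11A, TFAP2A and CEP85L was likewise detected on the untreated array only. For OTUB1 it read 68.5 against 494.7 units, and for MBNL2 44.0 against 882.8. Other probes of CARNMT1, PABPC3, SIGLEC12, PGK2, ICA1, SPI1, HDGFL1, HGH1 and IFITM4P were detected on neither array of this comparison. A second CD24 probe was detected on both, at 282.3 against 230.5 units. Of the 229 genes with an exosome-only probe, 126 had another probe, and in 54 of these (42.9%) another probe was detected on the untreated array. Which transcripts each probe reads was not used here, so probes of separate isoforms and probes of one transcript were not told apart.

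**Figure D5:**
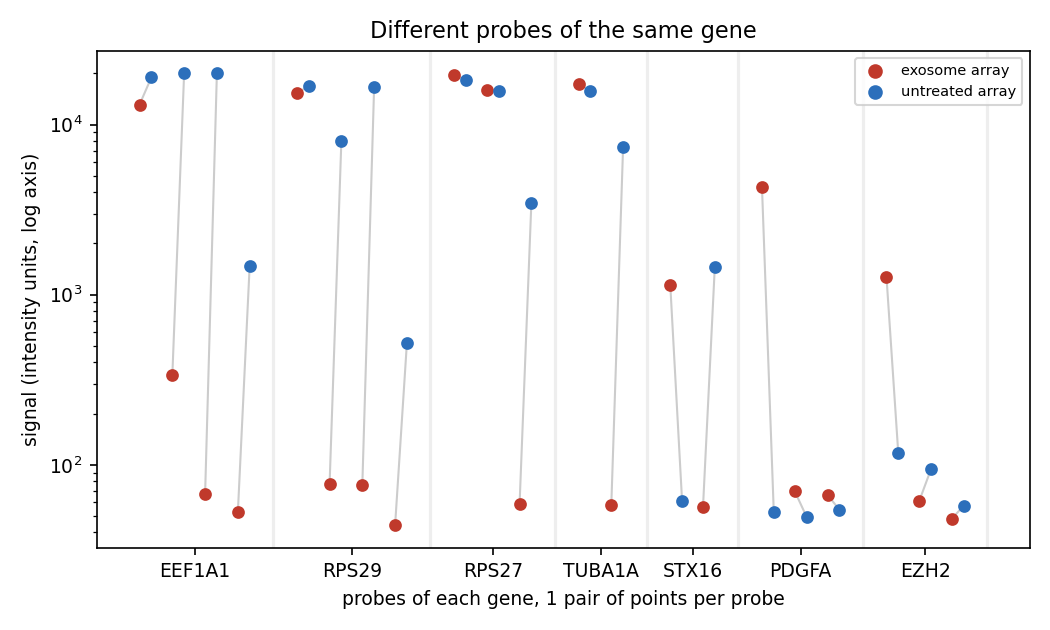
Signal, in intensity units on a log axis, of every probe of 7 named genes, with the exosome array in red on the left and the untreated array in blue on the right of each pair. Probes of EEF1A1 span 13116 to 52.4 units on the exosome array, against 20003 to 1468 units on the untreated array.

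Named and unnamed probes differed between the classes. Probes without a gene name made up 36.4% of the array, 28.6% of the probes detected on both arrays and 52.3% of those detected on the exosome array only. Protein-coding genes held 57.8% of the array's probes, 67.9% of those detected on both and 40.7% of the exosome-only ones. Of 952 long noncoding RNA probes, 29 (3.05%) were detected on the exosome array and 219 (23.0%) on the untreated array. Over all probes these shares were 5.34% and 40.5%.

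Small nucleolar RNAs, guides for the modification of ribosomal and spliceosomal RNA, ranked higher on the exosome array where both arrays detected them. Of 282 probes, 18 (6.38%) were detected on the exosome array and 78 (27.7%) on the untreated array, beside 5.34% and 40.5% of all probes. All 12 probes detected on both ranked higher on the exosome array, by a median of 40.4 points, and 4 rose by at least 50 points, beside 2.06% of all probes. For protein-coding genes the median shift was 2.01 points. On the untreated array the 12 probes had a median signal of 82.4 units, near the lowest detected signal of 67.8. All 2042 probes detected on both arrays had a median of 473.3 units there. Most of the 12 thus had more room to rise than to fall, and whether their class itself plays a part was not tested. Small nuclear RNA is a class that holds the spliceosomal RNAs and RN7SK. Of its 19 probes, 11 (57.9%) were detected on the exosome array and 13 (68.4%) on the untreated array. For all probes the shares were 5.34% and 40.5%. Of the 10 detected on both arrays, 9 ranked higher on the exosome array and the median shift was 28.5 points. Signals of the 10 reached 3405 units on the exosome array and 2961 on the untreated array. Several of the 10 belong to genes named for U1 RNA, with shifts of 28.7 to 33.0 points. Whether these probes read the same transcript was not tested, so the 10 may not be separate cases. The rank shifts cover only the probes that passed detection on both arrays.

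Few microRNA genes were detected, most of them close to the lowest detected signal. Of 560 probes, 12 (2.14%) were detected on the exosome array and 31 (5.54%) on the untreated array, beside 5.34% and 40.5% of all probes. The 6 detected on the exosome array only (1.07% of the 560, beside 1.02% of all probes) read 82.1 to 201.9 units there and 53.3 to 67.5 units on the untreated array. The 6 detected on both read 85.8 to 158.2 units on the exosome array and 85.5 to 160.8 on the untreated array. MIR574, the second brightest of the exosome-only microRNA genes, read 117.8 units on the exosome array and 53.3 on the untreated array. FAM114A1, whose span holds MIR574, read 41.3 against 407.5 units, and GDF5, whose span holds MIR1289-1, read 50.1 against 106.1 units. The MIR939 probe read highest, at 201.9 against 67.5 units. These genes were chosen after their values were seen. Of the 12 microRNA genes, 11 matched RefSeq's microRNA table for GRCh38.p14. The mature products of 5 of the exosome-only genes are shown, since microRNA content is what the series set out to study, with the seed (bases 2 to 8) in capitals. No 2 of them share a seed.
hsa-miR-574-3p: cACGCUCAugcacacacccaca
hsa-miR-574-5p: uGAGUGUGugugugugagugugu
hsa-miR-498-3p: aAAGCACCuccagagcuugaagc
hsa-miR-498-5p: uUUCAAGCcagggggcguuuuuc
hsa-miR-1281: uCGCCUCCuccucuccc
hsa-miR-450a-1-3p: aUUGGGAAcauuuugcauguau
hsa-miR-450a-5p: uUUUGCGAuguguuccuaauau
hsa-miR-1289: uGGAGUCCaggaaucugcauuuu
On GRCh38.p14 the products of MIR574 lie at chr4:38868092-38868113 (3p) and chr4:38868056-38868078 (5p) on the plus strand. Those of MIR498 lie at chr19:53674266-53674288 and chr19:53674230-53674252, also on the plus strand, and miR-1281 at chr22:41092545-41092561 on the plus strand. Those of MIR450A1 lie at chrX:134540358-134540379 and chrX:134540393-134540414, and miR-1289 at chr20:35453990-35454012, all on the minus strand. The mature forms themselves were not measured.

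Genes that make and use microRNAs were detected on the exosome array at a share close to that of all named probes. Of 41 probes for 25 genes of this machinery, 3 (7.32%) were detected there and 27 (65.9%) on the untreated array, beside 5.61% and 50.6% of all 30110 probes with 1 gene name. RAN, the GTPase that drives precursor export from the nucleus, read 8423 units on the exosome array and 7476 on the untreated array. AGO1, an Argonaute that holds the mature microRNA, read 181.5 against 276.4 units, and the Drosha cofactor DDX5 read 135.8 against 8193 units. Genes of exosome formation were detected for 3 of 34 probes on the exosome array and 26 of 34 on the untreated array. The raft protein FLOT2 read 1082 against 1594 units, the tetraspanin CD82 110.6 against 99.5 units, and the proteoglycan SDC1 82.8 against 1304 units.

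Ribosomal protein genes were detected at a higher share than all named probes on the exosome array. Of their 73 probes, 24 (32.9%) were detected there and 70 (95.9%) on the untreated array, beside 5.61% and 50.6% of all named probes. Of the 24, 10 ranked higher on the exosome array and 14 lower, with a median shift of -1.57 points beside 2.55 for all named probes. RPL12 read 17384 units on the exosome array and 11207 on the untreated array, and RPL27 read 17254 against 13890 units. At the other end RPL3 read 128.6 and 121.0 units on the exosome array, against 11487 and 7928 on the untreated array. Proteasome probes were detected for 11 of 34 on the exosome array and 32 of 34 on the untreated array, with a median shift of -27.3 points. Ranked among all probes of the array, however, all of the 11 except PSMA5 (97.3 against 97.7) stood higher on the exosome array. PSMB5, a catalytic subunit, read 7139 against 5974 units and the ATPase subunit PSMC6 6158 against 1546 units, whereas PSMA5 read 115.9 against 3956 units. Histone probes were detected for 7 of 22 on the exosome array and 19 of 22 on the untreated array, led by the variant histone H2AZ1 at 18813 against 5431 units.

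Within the probes detected on both arrays, the few metabolic ones ranked lower on the exosome array. All 6 oxidative phosphorylation probes detected on both arrays ranked lower on the exosome array, with a median shift of -43.1 points, beside 652 lower and 805 higher of all 1459 named probes detected on both. Of the 36 probes of this list, 6 (16.7%) were detected on the exosome array and 36 on the untreated array, beside 5.61% and 50.6% of all named probes. COX5B, a subunit of cytochrome c oxidase, read 769.1 against 5591 units, and NDUFB5, of complex I, 83.6 against 3155 units. The 6 probes had untreated ranks of 68.5 to 88.2, so they had more room to fall than to rise. Ranked among all probes of the array, COX5B (99.1 against 98.5), SDHC, NDUFV1 and ATP5MC1 stood higher on the exosome array. COX6C and NDUFB5 (95.3 against 97.0) stood lower there. All 7 shared hypoxia and glycolysis probes also ranked lower within the shared probes, with a median shift of -32.5 points. Among all probes of the array, PGAM1, ALDOC and VEGFA stood higher on the exosome array, and ALDOA, PKM and the 2 GAPDH probes lower. PGAM1 read 714.0 units on the exosome array and 5061 on the untreated array, and GAPDH read 288.8 and 105.4 units on the exosome array against 14676 and 15165 units. Of 42 probes of this list 8 were detected on the exosome array and 33 on the untreated array. In the housekeeping list 13 of 46 probes were detected on the exosome array and 43 of 46 on the untreated array. Here UBB, a ubiquitin gene, read 16684 and 119.8 units on the exosome array with its 2 detected probes, against 13256 and 9030 on the untreated array.

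Cell cycle and chromatin genes were mixed. Of all named probes, 5.61% were detected on the exosome array and 50.6% on the untreated array. Of 55 cell cycle probes, 5 (9.09%) were detected on the exosome array and 47 (85.5%) on the untreated array. CCNA2, the cyclin of S phase, read 779.3 against 451.4 units, the mitotic kinase PLK1 188.1 against 79.2 units, and CDC20, which activates the ligase that starts anaphase, 121.8 against 438.6 units. PLK1 fell just short of the 50-point rule, with a rise of 49.2 points. Of 43 probes for Polycomb and other chromatin modifiers, 6 were detected on the exosome array and 25 on the untreated array. Apart from EZH2 these included RBBP4, a histone-binding partner of EZH2, at 125.3 against 101.8 units, the DNA-binding subunit PHC1 of the other Polycomb complex at 126.6 against 176.4 units, ARID1A at 227.0 against 560.4 and the remodelling ATPase SMARCA4 at 222.6 against 1531 units. EZH2 was the only member of this list to pass the 50-point rule.

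Signalling lists held a few bright probes. Of 25 immediate early probes, 6 (24.0%) were detected on the exosome array and 19 (76.0%) on the untreated array, beside 5.61% and 50.6% of all named probes. Of the 6, 5 ranked higher on the exosome array, beside 805 of all 1459 named probes detected on both. JUND, a subunit of the AP-1 transcription factor, read 11817 against 7319 units, EGR1 946.0 against 739.8, MYC 280.1 against 731.9 and FOSB 134.1 against 118.1 units. For inflammatory NF-kB genes 2 of 34 probes were detected on the exosome array and 19 on the untreated array. These were the NF-kB inhibitor NFKBIA, at 5875 against 2341 units, and the mitochondrial superoxide dismutase SOD2, at 3407 against 2887 units. Growth factor and receptor probes were detected for 3 of 61 on the exosome array and 25 on the untreated array. Beside PDGFA these were the receptor MET, at 160.6 against 964.6 units, and VEGFA, at 82.9 against 82.7 units. Both PDGF receptors, PDGFRA and PDGFRB, belong to the fibroblast list, which had no detected probe on the exosome array. Interferon response probes were detected for 4 of 40 on the exosome array and 34 on the untreated array, with IFIH1, a sensor of viral RNA, at 200.8 against 130.0 units. The p53 targets gave 4 of 34 on the exosome array and 30 on the untreated array. The proapoptotic gene BAX read 444.3 against 1295 units, and the cell cycle inhibitor CDKN1A fell by 73.9 points, at 93.0 against 15095 units.

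Lists of more restricted expression were detected on the exosome array at shares close to the 5.61% of all named probes. On the untreated array the share of all named probes was 50.6%. Luminal breast probes were detected for 0 of 21 on the exosome array and 8 on the untreated array. Nuclear receptor probes were detected for 2 of 53 on the exosome array and 24 on the untreated array, among them PPARG, at 85.3 against 642.0 units. Of 31 probes for genes restricted to other organs, 1 was detected on the exosome array and 6 on the untreated array. The 1 was albumin (ALB), the main protein of blood plasma made by liver, at 139.3 against 114.7 units. The 3 mesenchymal probes on the exosome array were vimentin (VIM) at 105.8 against 16101 units, CAV1 at 93.4 against 6600 units and CALD1 at 253.3 against 2155 units, all lower than on the untreated array.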

How the data were processed

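Gene expression was measured on a 1-colour Illumina bead array, 1 array per group, in 4 groups read from the sample titles. The non-normalized table as deposited holds 1 linear signal intensity per probe and array, without background subtraction, beside a deposited detection p-value that ranks the probe against that array's negative controls. Scanner software is not given in the sources used here, and limma is named per the submitters' processing notes without a role. In the deposited value table the exosome column lay within 0.0026 of the detection p at every one of 47311 probes, so that table could not be used for this comparison.

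Of 47322 probes, 30110 had 1 gene symbol, 8 several and 17204 none in the platform annotation, and 30071 matched current symbols by gene identifier. Detection was called at p below 0.01. Ranks were taken on deposited signals. Folds used limma 3.58.1 in R 4.3.3, with neqc (background from detection p, offset 16, quantile normalization over 4 arrays), and are printed as the smallest over 6 scalings, computed on log2 values. The other scalings were quantile normalization alone, over 2 arrays, or with an offset of 50, median scaling, and signals as deposited. Python 3.11.15, numpy 2.4.6, pandas 2.3.3 and matplotlib 3.10.9 were used. Detection classes, rank shifts and normalized differences were tested on simulated arrays drawn from the same signal distribution. The simulation thus did not cover arrays with unequal detection, as here, nor the fold bounds.

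Named probes were the 10 largest rank rises and falls, the 10 with the highest mean rank, the 20 highest bounds on the exosome array, the 8 brightest on the untreated array only, and up to 4 with the highest exosome signal per class for 24 gene lists, 1 of which is not reported here. RPL3, PSMA5, NDUFB5 and RBBP4 were named after their values were seen. Members and lists were chosen with earlier results of these data known. Other probes of named genes were looked up. The number of arrays limits the precision.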

Additional observations from a re-analysis of the deposited data

How the results depend on the processing

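With 1 array per group no replicate could be left out. No paired analysis was possible because each group held 1 array. Counts at a detection p below 0.05 and below 0.001, in that order, were 3755 and 1201 probes on both arrays and 1127 and 164 on the exosome array only. With genes as the unit there were 1352 on both, 217 on the exosome array only and 9758 on the untreated array only. Spearman's rho became 0.45 at a detection p below 0.001. At a detection p below 0.05 there were 80 rank rises and 271 falls of at least 50 points, and with ranks among all probes of the array 0 of each, since detected probes then share the upper end of the scale. The 2-fold counts rested on the scaling. Quantile normalization gave 2180 probes higher and 985 lower (68.9% of the calls higher), median scaling 405 higher and 12260 lower (3.2%), and signals as deposited 214 higher and 11482 lower (1.83%). Of the 2042 probes detected on both arrays, 160 were at least 2-fold higher under all 6 scalings and 87 at least 2-fold lower. Another 606 were called in opposite directions by different scalings. All 484 exosome-only probes were called at least 2-fold higher after quantile normalization, 123 after median scaling and 54 as deposited. At a detection p below 0.05 and below 0.001 these were 1127 and 164, with 4259 and 1122 higher and 2227 and 492 lower over all probes. The median log2 difference of the probes detected on both arrays was 3.34 after quantile normalization, -0.37 after median scaling and -0.57 as deposited. Rank shifts were checked for the probes with the largest rises and falls and the highest mean rank, and none changed sign under the alternatives tried. Some other probes of the gene lists did change direction with ranks among all probes of the array, as given above for ATP5MC1. Fold bounds could not change sign, since they were set to 0 where they would have. List medians rest mostly on such bounds, so their sign is no check either. Named probes detected on both arrays are given by rank shift and deposited signal only. Which of them hold under all 6 scalings, and which are among the 606, is not given here. Signals within a few units of the lowest detected one, 81.0 on the exosome array and 67.8 on the untreated array, limit what can be said of dim probes.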

Other observations

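Some of the 26 named probes whose rank rose by at least 50 points lie outside the 10 described above, and those given here were chosen after their values were seen. NFIB, a transcription factor of lung and brain development, read 3271 units on the exosome array and 233.0 on the untreated array. The beta-tubulin gene TUBB2B read 3018 against 250.3 units, and the DNA primase subunit PRIM1 604.3 against 134.8 units. FLRT3, a membrane protein of cell adhesion, read 512.6 units on the exosome array and 112.6 on the untreated array, and 122.0 units on the Dicer antibody array.

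PSENEN and NCSTN encode subunits of the same protease, gamma-secretase, yet their probes lay at opposite ends. PSENEN read 1977 units on the exosome array and 242.5 on the untreated array, while NCSTN read 83.4 against 3588 units. On the MDA-MB-231 array PSENEN read 882.3 units and NCSTN 51.0, and on the Dicer antibody array 363.5 and 1445 units.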
